A study of Mus musculus with 8 samples.

Results

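The 4 genes Myh7, Myh6, Myh1 and Myh4 of the myosin heavy chain family were followed across the 8 arrays of a mouse muscle study. They are the probes annotated to these gene names, 4 of the 22 features on the array, with 6 spots per gene and 24 of the 132 gene spots of each array. The soleus served as the slow muscle and the flexor digitorum brevis (FDB) as the fast one, both from CD-1 mice 4 to 5 weeks of age. The RNA was labelled either after amplification or, un-amplified, as cDNA copied from 10 µg of total RNA. Each array set a Cy3-labelled RNA against a Cy5-labelled one. In the dye-swap experiment 2 arrays compared fast with slow amplified RNA and 2 did so for un-amplified RNA, each pair covering both dye orientations. The 4 loop arrays chained both kinds of RNA from both muscles into a closed circle. No genetic change or drug was named for any group, and the number of animals is not stated, so p-values reflect only how far these samples scatter, possibly for technical reasons.

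Myosin heavy chains are the motor proteins of the thick filament, and the isoform a fibre makes largely sets how fast it contracts. Myh7 encodes the slow, or beta, chain of type I fibres and of the heart ventricle, and Myh6 the alpha chain, best known from heart muscle. Myh1 encodes the chain of fast IIx fibres and Myh4 that of the fastest, IIb, fibres. Myh2, which encodes the IIa chain, was not analysed here. The soleus is rich in type I fibres. In RefSeq's table for the build GRCm38.p6, Myh6 and Myh7 are neighbours on chromosome 14, and Myh1 and Myh4 are neighbours on chromosome 11 with Myh2 on one side and Myh8 on the other. The array files name no build. Probe sequences were not used here, and members of this family have closely similar coding sequences, so signal of one isoform on the spots of another was not tested.

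The stretches upstream of Myh1, Myh4 and Myh7 are printed because the 2 fast genes share a run of letters there that the slow gene lacks. They are RefSeq sequences of build GRCm38.p6, the 250 bases before a start that RefSeq's promoter table lists, written 5′ to 3′ on the gene's strand. For Myh7 the table lists 2 starts and the downstream one was used, so 77 bases of its window lie inside the annotated span of the gene. All 250 bases of the window searched for Myh6, from the 1 start listed, lie inside that gene's annotated span. Capitals mark the longest run shared by Myh1 and Myh4 and each TATAAA on the gene's strand. The regions are chr11:67199852-67200101 (plus strand) for Myh1, chr11:67237562-67237811 (plus strand) for Myh4 and chr14:54994550-54994799 (minus strand) for Myh7.
Myh1: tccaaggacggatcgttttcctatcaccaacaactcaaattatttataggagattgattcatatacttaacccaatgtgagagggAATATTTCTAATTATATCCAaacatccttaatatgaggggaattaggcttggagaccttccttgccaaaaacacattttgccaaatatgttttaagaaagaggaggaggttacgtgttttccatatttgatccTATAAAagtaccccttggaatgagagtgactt
Myh4: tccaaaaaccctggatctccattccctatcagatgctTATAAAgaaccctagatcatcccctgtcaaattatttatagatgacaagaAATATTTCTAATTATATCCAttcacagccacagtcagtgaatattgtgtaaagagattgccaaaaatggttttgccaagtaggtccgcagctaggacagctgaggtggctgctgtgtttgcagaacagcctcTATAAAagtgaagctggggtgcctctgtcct
Myh7: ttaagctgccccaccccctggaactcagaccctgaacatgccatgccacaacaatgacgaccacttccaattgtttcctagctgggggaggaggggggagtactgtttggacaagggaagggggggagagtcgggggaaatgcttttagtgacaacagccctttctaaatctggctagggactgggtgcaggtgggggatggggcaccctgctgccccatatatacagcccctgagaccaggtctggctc
The shared run has 20 bases, begins at position -165 for Myh1 and -163 for Myh4, counted back from -1 just before the start, and stands in 3 of the 32851 promoters of the table, those of Myh1, Myh2 and Myh4. The longest run shared by Myh7 and Myh6 has 10 bases and stands in 207 promoters. Both strands were searched for TATAAA, which 12.4% of promoters of this length hold. On the gene's strand its last match begins at -32 for Myh1 and -31 for Myh4, and the windows searched for Myh7 and Myh6 hold no match on either strand; other windows of these genes were not searched. CANNTG, the E-box, stands in 66.2% of promoters and has 2 matches for Myh7, 1 for Myh6, 0 for Myh1 and 2 for Myh4. These are matches of letters in one window, and the arrays did not measure binding there.

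Of the 192 spots of the 4 genes over all arrays, 135 (70.3%) were usable in both channels, against 848 of 1056 (80.3%) for all gene spots. Most of the loss lay in pair 1, as the dye-swap arrays with scanner files labelled amplified are called here. On its arrays, 6 and 9 of the 24 spots of these genes were usable, against 24 and 23 on those of pair 2, with files labelled un-amplified. The median background of the 24 spots in pair 1 was 3163 in Cy3 and 1222 in Cy5 on array 1, and 789 and 711 on array 2. In pair 2 it was 85.0 and 9.50 on array 1, and 73.9 and 41.3 on array 2. One doubt touches every statement on amplification in the dye swap. Ratios listed for the amplified samples in the series table fit the scanner files of pair 2, and those listed for un-amplified samples fit pair 1. Between 97.6% and 100% of them lay within 0.0003 natural-log units, where no other pairing exceeded 14.8%. The scanner files' labels are the ones used, and values with the labels of the table are given where they differ. The comparison of fast with slow muscle over all arrays does not use this label.

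Myh7 was lower in fast than in slow muscle wherever it gave a ratio in both dye orientations. Values are log2 fast/slow ratios, averaged over usable spots and relative to the median feature of the same array. In pair 2 the ratio was -3.34 on array 1 (spot SD 0.15, 6 spots) and -2.83 on array 2 (spot SD 0.06, 6 spots). These spots were bright: in the slow channel the median signal stood at 896 times its background on array 1 and 160 times on array 2. In pair 1 all 6 spots were marked empty on array 1, and on array 2 the 3 usable spots gave -0.93 at 3.47 times background in Cy3 and 2.11 times in Cy5. The 2 loop arrays that cross muscle with RNA kind lay at the ends of its range. Fast un-amplified over slow amplified RNA gave -5.60 (spot SD 0.04, 4 spots). There the integral signal of the fast un-amplified channel was 1.57 times its background, and that of 1 of the spots 0.724 times. Loop integrals were taken as background-subtracted and dye-swap signals in these multiples were not, so the 2 kinds of multiple are not comparable. On that reading, a loop value below 1 does not mean a spot below background. Fast amplified over slow un-amplified RNA gave -0.28 (spot SD 0.38, 6 spots), with spots on both sides of 0, from -0.91 to 0.18. Their dye-balanced mean was -2.94 and rests partly on the fast un-amplified channel with its low signal, and pair 2 gave -3.08.

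Myh1 was higher in fast muscle on every array that compared the muscles, and it was the only member with all 6 spots usable on each dye-swap array. Its log2 fast/slow ratio was 0.38 and 1.08 on the arrays of pair 1, and 1.88 and 1.91 on those of pair 2. The loop arrays gave 2.83 for fast amplified over slow un-amplified RNA and 2.21 for fast un-amplified over slow amplified RNA. The lowest of these values came from array 1 of pair 1, where 5 spots lay between 0.20 and 0.35 and 1 spot at 0.94. Signal stood at 8.02 times background in Cy3 and 13.2 times in Cy5 there, and at 167 and 369 times on array 1 of pair 2. The 3 replicate ratios, each balanced for dye, were 0.73, 1.90 and 2.52, all above 0.

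Myh4, the IIb chain, gave opposite directions in the 2 experiments. In pair 2 it was higher in fast muscle, with log2 ratios of 2.67 (spot SD 0.09, 6 spots) and 1.90 (spot SD 0.05, 6 spots) at 45.0 to 168 times background. In the loop it was lower in fast muscle, at -0.47 for fast amplified over slow un-amplified RNA and -2.17 for fast un-amplified over slow amplified RNA. The 2 sets of spots do not overlap, since the highest loop spot was 0.03 and the lowest spot of pair 2 was 1.84. Spots of an array share its labelled RNA, so this shows precision within arrays and not replicate spread. Other features also changed sign between pair 2 and the loop, as listed in the closing section. On those loop arrays the integral signal of the un-amplified channel of Myh4, taken as background-subtracted, was 2.77 and 1.5 times its background. Such multiples are not on the scale of those in pair 2. The amplified channel listed a background of 0 for 6 of 6 and 4 of 5 usable spots. All 6 spots on each array of pair 1 were marked empty. The part of signal level in the difference was not tested.

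Myh6, the alpha chain, had the lowest signal over background of the 4 in pair 2. Its log2 fast/slow ratio was -0.49 on array 1 (6 spots) and -0.71 on array 2 (5 spots), each with every usable spot below 0. The median signal there was between 3.18 and 24.3 times background. The loop gave -2.57 for fast amplified over slow un-amplified RNA from 2 spots and 0.16 for fast un-amplified over slow amplified RNA from 3 spots, which ran from -0.32 to 0.65. The integral signal of the un-amplified channel, taken as background-subtracted, was 0.743 times its background on the second of these arrays. The amplified channel of the first listed a background of 0 for both usable spots. Relative to the median feature, all usable spots of pair 2 thus lay on the same side, and those of the loop on both sides of 0. On array 1 of pair 2 the sign rests on centring. The median signal there was 283 in Cy3, the fast channel, and 148 in Cy5, and the array's centre was a log2 Cy3/Cy5 ratio of 1.00. On array 2 Cy3, there the slow channel, was again the brighter, at 228 against 66.7. Pair 1 gave no ratio, with all 6 spots marked empty on each array.

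**Figure D1:**
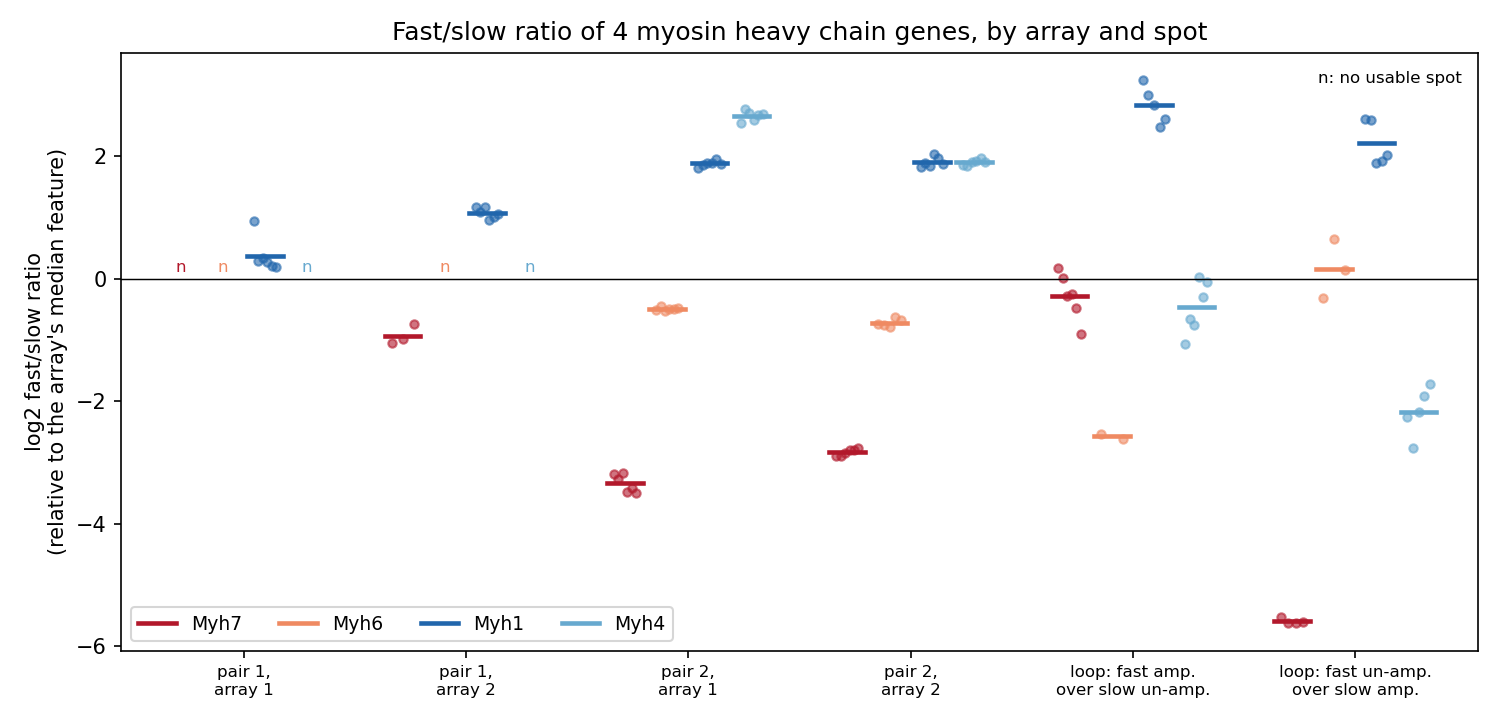
Log2 fast/slow ratio (y axis, relative to the array's median feature) on the 4 dye-swap arrays and the 2 loop arrays that cross muscle with RNA kind (x axis), for 4 myosin heavy chain genes. Points are usable spots and bars their mean; Myh1 lies above 0 on every array, while the mean of Myh4 is 2.67 and 1.90 in pair 2 and below 0 in the loop.

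Across replicate ratios, Myh7 and Myh1 passed the test and moved in opposite directions. The mean log2 ratio of Myh7 was -3.01 ± 0.10 (SD, n = 2 ratios; limma adjusted p = 0.000112), or 8.07-fold lower in fast muscle. Myh1 was 3.29-fold higher, at 1.72 ± 0.91 (SD, n = 3; limma adjusted p = 0.00444). Myh6 had -0.90 ± 0.43 (SD, n = 2; limma adjusted p = 0.343), with a 95% interval of -2.04 to 0.23. Myh4 had 0.48 ± 2.55 (SD, n = 2; limma adjusted p = 0.687), with an interval of -0.65 to 1.62 that rests on the spread pooled over features and is narrower than its own 2 ratios, 2.28 and -1.32. Of the 21 features tested, 5 (23.8%) passed an adjusted p of 0.05, and 2 of these 4 genes were among them. The standard error, 0.456 with 3 ratios and 0.559 with 2, was the same for every feature because limma pooled the spread fully.

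The call of Myh1 was lost with loess (1.27, limma adjusted p = 0.102), without pair 2 (adjusted p = 0.182) and without the loop (adjusted p = 0.105), and each gene's own variance left neither call (adjusted p = 0.259 for Myh7 and 0.346 for Myh1). Without pair 2 or without the loop, Myh7 had 1 ratio and no test, and with marked spots kept it had -1.79 over 3 ratios (limma adjusted p = 0.000568).

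**Figure D2:**
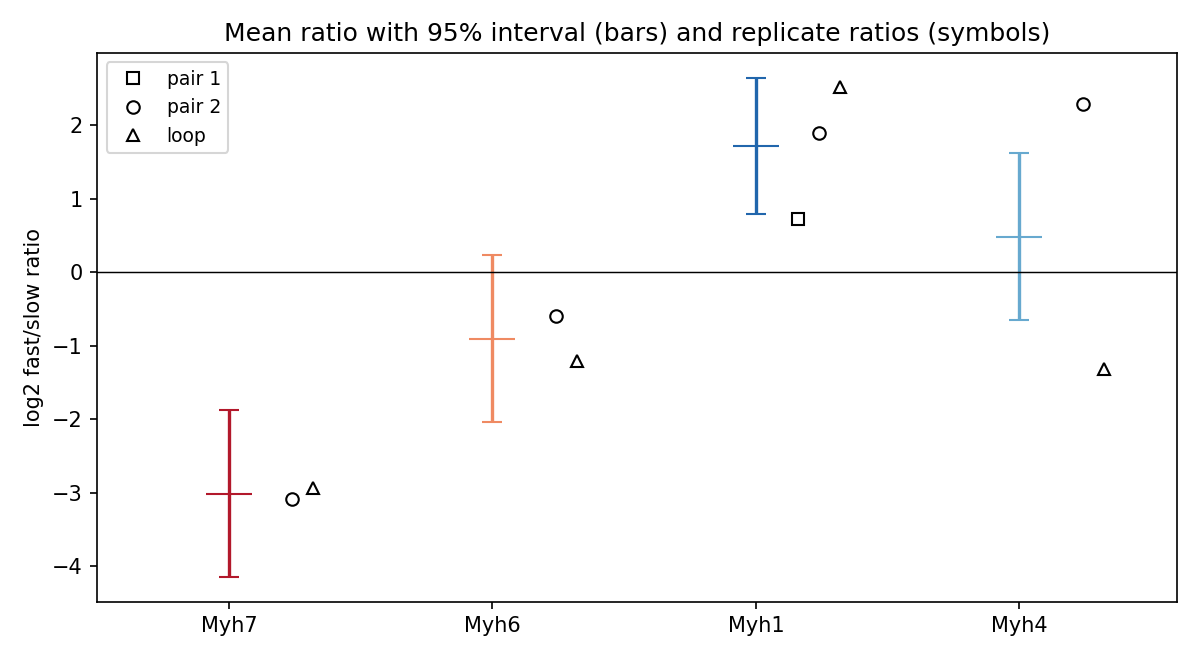
Mean log2 fast/slow ratio (y axis) of each gene (x axis) with its 95% interval from limma, and the replicate ratios beside it (square: pair 1, circle: pair 2, triangle: loop). The 2 ratios of Myh7 lie close together near -3, where the loop ratio averages arrays at -5.60 and -0.28. Those of Myh4 lie on opposite sides of 0, outside its interval.

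Among other contractile genes on the array, the slow list had 2 of its 7 genes, Tnnc1 and Tnni1 (slow troponin C and I), and 1 of them, Tnnc1, fell in fast muscle (-1.35, limma adjusted p = 0.024), with a list median of -1.03. The fast list had 3 of its 7, Mylpf, Tnnc2 and Tnni2 (fast regulatory light chain and fast troponins), of which 0 passed, with a median of 0.31. Acta1 and Csrp3, the 2 of 5 genes of the shared list on the array, had 0 calls and a median of -0.37. Of the fibre-type markers, 1 of 4 tested fast-fibre genes rose in fast muscle, Pvalb (parvalbumin; 2.25, limma adjusted p = 0.000223), and 2 of 4 tested slow-fibre genes fell, Tnnc1 and Ldhb (a lactate dehydrogenase subunit; -1.96, limma adjusted p = 0.00667). The median size of the log2 ratio over all 21 features was 0.48. No marker of heart, endothelium and blood, nerve, fat, connective tissue or immune cells from the lists used was on the array, so RNA of these cells was not measured. In bulk muscle, fewer fibres of a type and less RNA per fibre cannot be told apart.

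The isoforms were then compared with one another within each array, where the difference of 2 log2 ratios does not depend on centring. Myh7 lay below Myh1 on all 5 arrays with both, with differences of -2.01 on array 2 of pair 1, -5.22 and -4.74 in pair 2 and -3.12 and -7.81 in the loop. Over the replicate ratios the difference Myh7 minus Myh1 was -5.22 ± 0.34 (SD, n = 2; limma adjusted p = 0.00591). This is a 37.3-fold shift of the balance between the RNA signals of the slow and the IIx chain, and protein was not measured. Myh6 also lay below Myh1 on all 4 arrays with both, and Myh6 minus Myh1 was -3.11 ± 0.87 (SD, n = 2; limma adjusted p = 0.0158). In order from slow to fast, the 4 mean ratios ran Myh7, Myh6, Myh4, Myh1, an order that neither pair 2 nor the loop had alone. Pair 2 ran Myh7 (-3.08), Myh6 (-0.60), Myh1 (1.90), Myh4 (2.28). The loop ran Myh7 (-2.94), Myh4 (-1.32), Myh6 (-1.21), Myh1 (2.52). Only the mean of Myh1 includes a ratio from pair 1.

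Of the neighbours in the order of the mean ratios, only Myh7 and Myh6 differed by the test, with Myh7 minus Myh6 at -2.11 ± 0.53 (SD, n = 2; limma adjusted p = 0.0371). By array this difference was -2.85 and -2.11 in pair 2, and -5.76 and 2.29 in the loop. Myh6 minus Myh4 was -1.39, with an interval of -3.34 to 0.56 (limma adjusted p = 0.251). Myh1 minus Myh4 was 1.73, with an interval of -0.71 to 4.16 (limma adjusted p = 0.251), from array differences of -0.78 and 0.01 in pair 2 and 3.30 and 4.38 in the loop. Myh7 minus Myh4 was -3.50 (limma adjusted p = 0.0378), from -5.37 in pair 2 and -1.62 in the loop.

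Thus 4 of the 6 pairs of isoforms passed, against 63 of 203 pairs of features (31%). The pairs share genes, so their p-values may be too small, and an exact sign-flip test over 2 ratios cannot go below p = 0.5. With spots marked empty kept, 0 of the 6 pairs passed, and Myh7 minus Myh1 became -3.27 over 3 ratios (limma adjusted p = 0.0531).

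**Figure D3:**
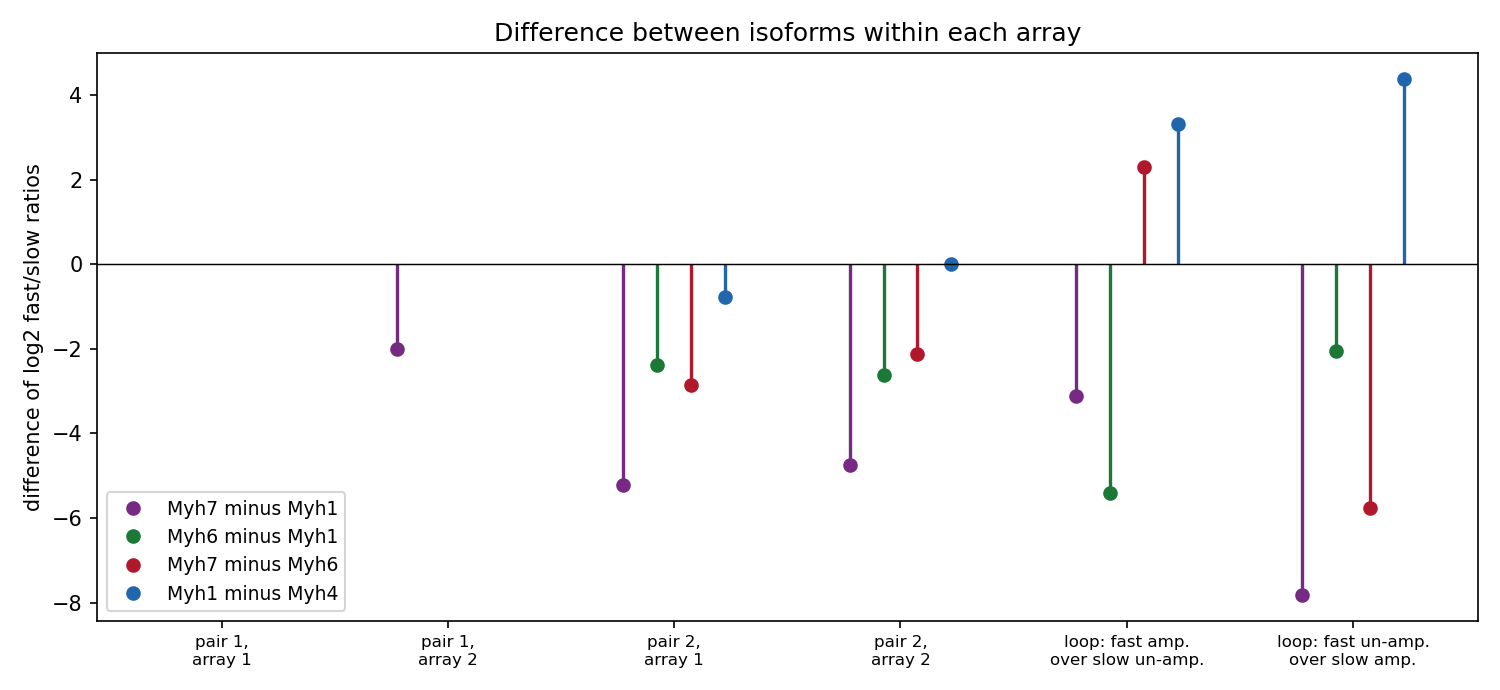
Difference between the log2 fast/slow ratios of 2 isoforms (y axis) on each array that compared the muscles (x axis), for 4 pairs of genes. Myh7 minus Myh1 runs from -7.81 to -2.01 on the 5 arrays with both, and Myh1 minus Myh4 is near 0 in pair 2 and above 3 in the loop.

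Amplified and un-amplified RNA of the same muscle met on 2 loop arrays, which ask whether amplification keeps the proportions of the transcripts. Values are log2 amplified/un-amplified ratios relative to the array's median feature. Myh7 had 2.92 in slow muscle (5 spots, 2.38 to 3.50) and 0.84 in fast muscle (5 spots, 0.71 to 1.03). Myh6 had -1.49 in slow muscle (5 spots) and -2.87 in fast muscle (3 spots). The slow chain was thus over the median feature and the alpha chain under it in both muscles, with no overlap between the spots of the 2 genes. Myh4 had 1.83 in slow muscle and 0.23 in fast muscle, where its 5 spots lay on both sides of 0. Myh1 had -1.49 in slow muscle and -0.06 in fast muscle. Amplified RNA carried Cy3 on both arrays, so dye and amplification cannot be told apart in these values. Less each gene's mean over the 4 loop arrays, taken as its dye term, Myh1 had -0.94 and 0.48, so its sign in fast muscle turned. On that scale Myh7 had 3.31 and 1.23, Myh6 -1.08 and -2.46, and Myh4 1.74 and 0.14.

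In the fit over the 4 loop arrays, amplified RNA held 4.82-fold more Myh7, relative to the median feature (log2 2.27 ± 0.52 SE; limma adjusted p = 0.00178) and 3.42-fold less Myh6 (-1.77 ± 0.52 SE; limma adjusted p = 0.0105). Myh4 had 0.94 (limma adjusted p = 0.143) and Myh1 -0.23 (limma adjusted p = 0.726), with intervals of -0.13 to 2.02 and -1.31 to 0.84. Of 21 features tested, 9 (42.9%) passed, and 2 of these 4 genes were among them. Between isoforms, Myh7 minus Myh6 was 4.04, Myh7 minus Myh1 was 2.50 and Myh6 minus Myh4 was -2.71 (limma adjusted p = 1.53e-06, 0.00257 and 0.00112), so that 3 of 6 pairs passed, against 93 of 210 pairs of features (44.3%). The background was listed at 0 for 46 of the 73 usable spots of these genes in amplified channels and for 0 of 73 in un-amplified channels, and its part in these ratios was not tested.

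The error of this fit comes from how far slow and fast muscle disagree about amplification, over all features, so it holds no replicate spread, and with each gene's own variance neither call was kept (limma adjusted p = 0.381 for Myh7 and 0.36 for Myh6). Without centring the median feature moved by -0.63, the ratio of Myh7 became 1.64 (limma adjusted p = 0.0617) and that of Myh6 kept its call, while with loess or with marked spots kept neither gene passed (limma adjusted p = 0.0963 for both genes with loess, 0.12 for Myh7 and 0.0749 for Myh6 with marked spots).

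**Figure D4:**
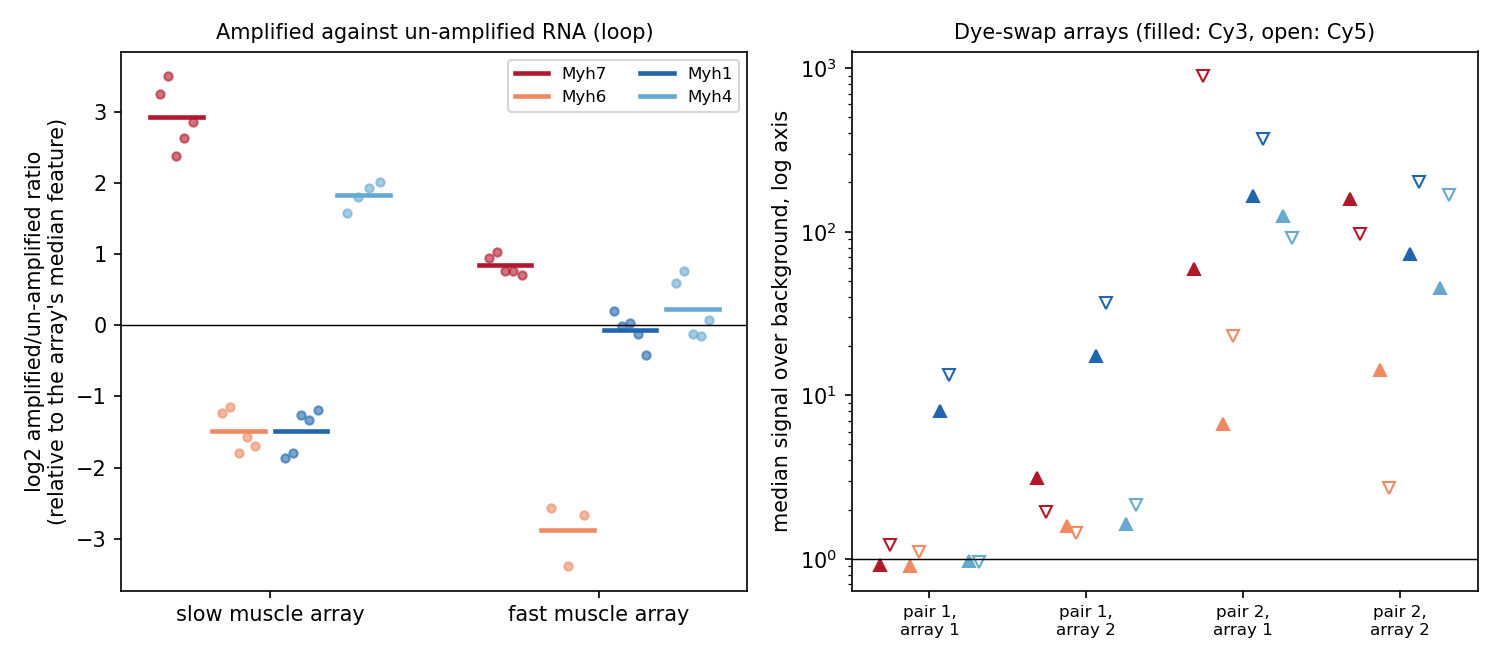
Left: log2 amplified/un-amplified ratio (y axis) on the slow and the fast muscle array of the loop (x axis), with points for usable spots and bars for their mean. Right: median signal over background of all 6 spots per gene (y axis, log scale) on the dye-swap arrays (x axis), in Cy3 (filled) and Cy5 (open); Myh7, Myh6 and Myh4 lie near the line at 1 on array 1 of pair 1.

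The muscles were next compared separately in each kind of RNA, from 1 dye-swap pair and the loop. In un-amplified RNA 0 of 20 features passed limma at an adjusted p of 0.05 (0%), and 3 had an unadjusted p below 0.05, Myh7 and Myh1 among them. Myh7 had -2.49 and Myh1 1.85 (limma adjusted p = 0.126 for both). In amplified RNA 0 of 13 features passed (0%; 2 at the unadjusted p), and Myh1, the only member with 2 values, had 1.98 (limma adjusted p = 0.0962). With the labels of the series table, Myh7 had -3.53 and Myh1 2.57 in amplified RNA, and 4 of 20 features passed (20%), these 2 among them (limma adjusted p = 0.000239 and 0.00377). In un-amplified RNA these labels gave Myh1 1.27 (limma adjusted p = 0.0598), 0 of 13 features passed (0%; 6 at the unadjusted p), and Myh7 had no test.

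The difference between amplified and un-amplified RNA in the fast/slow ratio could be tested for Myh1 alone. It was 0.13 with an interval of -2.83 to 3.09 (limma adjusted p = 0.992), and 0 of 13 features passed (0 at the unadjusted p too). With the labels of the table it was 1.30 (limma adjusted p = 0.0492), and 2 of 13 features passed (15.4%). Within the loop the ratio of Myh7 was -3.98 from amplified and -1.90 from un-amplified RNA, that of Myh1 3.24 and 1.81, that of Myh6 -1.90 and -0.52, and that of Myh4 -2.11 and -0.52. Each of the 4 was farther from 0 in amplified RNA, as were 14 of all 21 features with loop values, and with 1 loop this was not tested.

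Across arrays, the features whose log2 ratios were closest to those of each gene were found by the mean absolute difference. For Myh7 they were Tnnc1 (1.12) and Acta1 (1.36) over 7 arrays, and for Myh1 Pvalb (0.99) and Mylpf (1.16) over 8. Tnnc1 is slow troponin C, and Pvalb is parvalbumin, a calcium buffer of fast fibres. For Myh4 they were Calm2 (1.31) and Tnnc2 (1.34) over 6 arrays, and for Myh6 an unnamed feature (0.65) and Mgp (1.06) over 6. No myosin heavy chain was among the 2 features closest to another, and the nearest pair of them, Myh1 and Myh4, differed by 2.01 on average. Spots of a gene stand in 2 blocks of 3 on the grid, and over 21 comparisons of blocks the median difference was 0.262 and the largest 0.750.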

How the data were processed

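The data are 4 dye-swap and 4 loop arrays of mouse muscle RNA. Per the file headers, the deposited dye-swap files hold pixel intensity per spot and its background from ImaGene 5.5, with area and background SD as signal values and a flag for empty or poor spots. The deposited loop sheets hold integral intensity per spot, taken here as background-subtracted, a median pixel ratio and the fraction of unsaturated pixels. The authors' series table holds ratios of Cy3 over Cy5. Aligning these ratios to the spots placed the probes on a grid of 9 by 16. On array 2 of pair 2 the image header and file name give opposite dyes, and the header was used. With the dyes of the file name, every ratio of that array would change sign, and this alternative was not run. The pair 2 ratios thus depend on this choice, and for Myh7, Myh6 and Myh4 no other dye-swap pair gave a ratio.

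Dye-swap signals were corrected by normexp (offset 50). Marked spots were left out, log2 ratios of usable spots averaged, and each array centred on its median feature. Features with at least 2 of 3 replicate ratios (pair 1, pair 2, dye-balanced loop) were tested with limma 3.58.1 in R 4.3.3, two-sided, with Benjamini-Hochberg adjustment over all features or all pairs of features. A pair needed both dye orientations. Amplification was fitted on the loop with terms for muscle and dye. The steps were tested on simulated data. All 4 genes are named by rule, other genes only through fixed lists, and the 2 closest features by mean absolute difference over at least 5 arrays. Features that changed sign between pair 2 and the loop, as Myh4 did, are named as well. The members and lists were chosen with earlier results of these data known. The number of arrays limits precision. Alternatives are in the closing section.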

Additional observations from a re-analysis of the deposited data

Results flagged for a closer look

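The log2 fast/slow ratio of Myh4 was 2.28 as the mean of dye-swap pair 2 and -1.32 as the dye-balanced loop estimate. It was singled out because every usable dye-swap spot of the gene, all of them in pair 2, lay above 0, whereas both loop arrays had a mean below 0. The difference between the experiments was not tested. Other features also had opposite signs in pair 2 and the loop, with values nearer 0 than those of Myh4. These were Csrp3, Mgp, Tnni2, Ppp2ca, Ppp3cb and an unnamed feature, so a change of sign was not particular to Myh4. The un-amplified channels of the loop stood at 1.5 and 2.77 times background for Myh4, with integrals taken as background-subtracted. In pair 2, signal without that subtraction stood at 45.0 to 168 times background, so the multiples are not on the same scale.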

How the results depend on the processing

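Counts of these genes past an adjusted p of 0.05 changed as follows; Myh6 was not tested under the dim-spot limit or with the first or last 3 spots, which leaves 3 genes and 3 pairs. For fast against slow (2 of 4), 1 passed with loess and with the first 3 spots only, and 0 with each feature's own variance; leaving out 1 replicate ratio gave 0 to 2. For pairs of isoforms (4 of 6), loess left 1, no background subtraction 2, keeping marked spots 0, the dim-spot limit 2 of 3 tested, and the first or last 3 spots 1 and 0 of 3 tested; without pair 1, 5 passed. Within amplified RNA (0 of 1 tested), 2 of 4 tested passed with the table's labels and 2 of 4 with its ratios. Myh7, without a test in the main setting, was among them both times. Within un-amplified RNA (0), 1 passed with loess, 2 without centring and 3 with the table's ratios. The amplified minus un-amplified difference (0) gained 1 with the table's labels. For amplification (2 of 4), loess, keeping marked spots and own variance each left 0, the dim-spot limit 0 of 3 tested, no centring 1, and the first or last 3 spots 1 of 3 tested each. For its pairs (3 of 6), the dim-spot limit and the first or last 3 spots each gave 1 of 3 tested, Myh7 minus Myh1, which had passed before; loess and the median pixel ratio gave 4, marked spots kept 2 (without Myh6 minus Myh4, adjusted p = 0.0612) and the table's ratios 2 (without Myh7 minus Myh1, adjusted p = 0.0546). Signs turned for Myh4 with the table's ratios, at -0.0569 over all ratios and -0.997 within un-amplified RNA. In un-amplified RNA it passed as lower in fast muscle (limma adjusted p = 0.0282), with 1 table value on 1 of the dye-swap arrays. The table's ratios carry its own labels, so those of its un-amplified dye-swap samples fit the files of pair 1. On both arrays of that pair all 6 spots of Myh4 were marked empty. The sign also turned for the Myh1 difference between RNA kinds with loess (-0.23) or marked spots kept (-0.0942). Over single genes and pairs, 180 values kept direction and side of the threshold, 28 lost the call, 11 gained it and 4 reversed. Some of the 180 were fixed in advance, since differences between isoforms do not depend on centring. Likewise, leaving out pair 1 cannot move the mean ratio of Myh7, Myh6 or Myh4, which had no ratio there. The cause of the changes was not tested. The use of the first or last 3 spots was chosen after seeing the data. Leaving out pair 2 or the loop gave no value for isoform pairs. Each log2 ratio already sets the 2 RNAs of the same array against each other. Beyond this, arrays of different groups could not be paired, because the groups compared share no replicate number in the labels.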

Other observations

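With spots marked empty kept, the arrays of pair 1 gave log2 fast/slow ratios of -0.15 and -1.11 for Myh7, 0.20 and -0.24 for Myh6, 0.28 and 1.06 for Myh1 and 1.00 and 0.47 for Myh4. The median signal of Myh7, Myh6 and Myh4 there was 0.903 to 3.11 times background, and no test was made on these values alone.

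In the authors' deposited table the mean fast/slow ratio of Myh7 over its spots (geometric mean, linear scale) was 0.0974 and 0.108 in the columns of the amplified dye-swap samples, and 0.1 (1 value) and 0.403 in those of the un-amplified samples. That of Myh4 in the authors' deposited table was 12.1 and 3.76 in the amplified columns, 0.0905 (1 value) and 1.20 in the un-amplified columns, and 0.444 and 0.511 in the loop columns that cross muscle with RNA kind. Myh6 had 1.39 and 0.116 in the amplified columns, on opposite sides of 1, and 0.306 (2 values) and 0.727 in the un-amplified columns. In the same loop columns it had 0.103 (2 values) and 2.56 (3 values). The amplified columns fit the files of pair 2, and the un-amplified columns those of pair 1.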
